A study of Mus musculus with 4 samples.

Results

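The 10 genes described here encode enzymes of glycolysis, taken in pathway order by their symbols in the count table: Hk1, Hk2, Gpi1, Pfkl, Aldoa, Tpi1, Gapdh, Pgk1, Pgam1 and Ldha. All 10 were found among the 10716 genes of the table, and all 10 were tested. The RNA came from C57BL/6 fetal liver erythroid cells at embryonic day 14.5, isolated by flow cytometry for YFP made from the R26eYFP reporter. KO1 and KO2, the 2 libraries labelled knockout, have the genotype Epor-Adar / + in the labels, with Epor-Cre, which is active in the erythroid lineage, acting on Adar. Whether 1 Adar allele or both were lost cannot be read from that genotype. WT3 and WT8, the 2 controls, are labelled wild type. Whether the controls carried Cre is not stated, although YFP-positive cells were taken. The labels do not say whether each library came from a separate embryo. By the Y-linked counts given below, KO1 and KO2 differ in sex and so did not come from the same embryo. For WT3 and WT8 those counts do not settle it. The spread behind each p-value is that between these libraries and may be technical in part.

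Glycolysis splits glucose into pyruvate in the cytosol. The hexokinases Hk1 and Hk2 trap glucose as its phosphate, Gpi1 isomerises it, Pfkl adds another phosphate at the committed step, and Aldoa and Tpi1 yield the triose that Gapdh, Pgk1 and Pgam1 carry towards pyruvate with the gain of ATP. Ldha, lactate dehydrogenase A, turns pyruvate into lactate and restores the NAD that Gapdh consumes. Red cells lose their mitochondria as they mature and then depend on this pathway for ATP, with HK1 and the PKLR form of pyruvate kinase as the forms of the mature cell. In many cell types the hypoxia-inducible factor HIF raises transcription of glycolytic genes through the core motifs ACGTG and GCGTG in their promoters.

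The libraries held 28356401 to 44016809 counts. Adar, whose product edits adenosine to inosine in RNA, stood at 67.1 and 102 CPM in KO1 and KO2 (counts scaled to a common library total by the TMM method), against 50.9 and 46.9 CPM in WT3 and WT8. Its count was thus not lower in the KO libraries, and since the deleted exons are not named in the labels this checks nothing about a partial deletion. Y-linked genes had 11705 and 3 counts in KO1 and KO2, against 5599 and 10695 in WT3 and WT8, which goes against the labelled sex of KO1, KO2 and WT3. By these counts KO2 differs in sex from the other 3 libraries, so in every comparison of KO2 with KO1 or with a control below, sex and the difference described cannot be told apart. Erythroid markers, 9 of 9 measured, summed to 69496 and 69699 CPM in KO1 and KO2, against 98854 and 65335 CPM in WT3 and WT8. In such bulk samples fewer cells of a type and less RNA per cell cannot be told apart. KO1 lay farther from the controls than KO2 for 10 of the 10 enzymes. The share of all genes for which this holds was not computed, so it is not shown to be particular to these enzymes.

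Transcript levels of 9 of the 10 enzymes were higher in KO1 and KO2 than in either control, and that of Hk1 was lower. Across all genes tested, 27.4% lay above the controls without overlap and 26.7% below. The largest differences were those of Hk2, Aldoa and Pgk1, with mean levels 7.56, 5.95 and 4.16 times the control mean. The difference was smallest for Pfkl, at 1.25 times. The median log2 fold change of the 10 was 1.30, beside 0.00 (-0.000773) over all genes. None of the 10 passed an adjusted p of 0.05 in edgeR's quasi-likelihood test (adjusted p from 0.278 for Pgk1 to 0.503 for Hk1), a threshold that 0.103% of all genes passed. At an unadjusted p below 0.05 there were 8 of the 10, all higher, where 9.82% of all genes were higher and 2.08% lower at that level. Under other tests the count differed. Hk2, Gpi1, Aldoa, Tpi1, Pgk1 and Pgam1 were called higher by DESeq2, 6 of the 10, and by the likelihood ratio test of edgeR, again 6 of the 10. DESeq2 called 3.29% of all genes higher and the likelihood ratio test 3.09%. With limma-voom 0 of the 10 were called, beside 0.0747% of all genes, although that fit gave the same directions. In the authors' deposited table the adjusted p of the 10 ran from 0.337 for Pgk1 to 0.466 for Hk1. These equal the limma-voom values found here for each of the 10, so the 2 are not separate results.

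**Figure D1:**
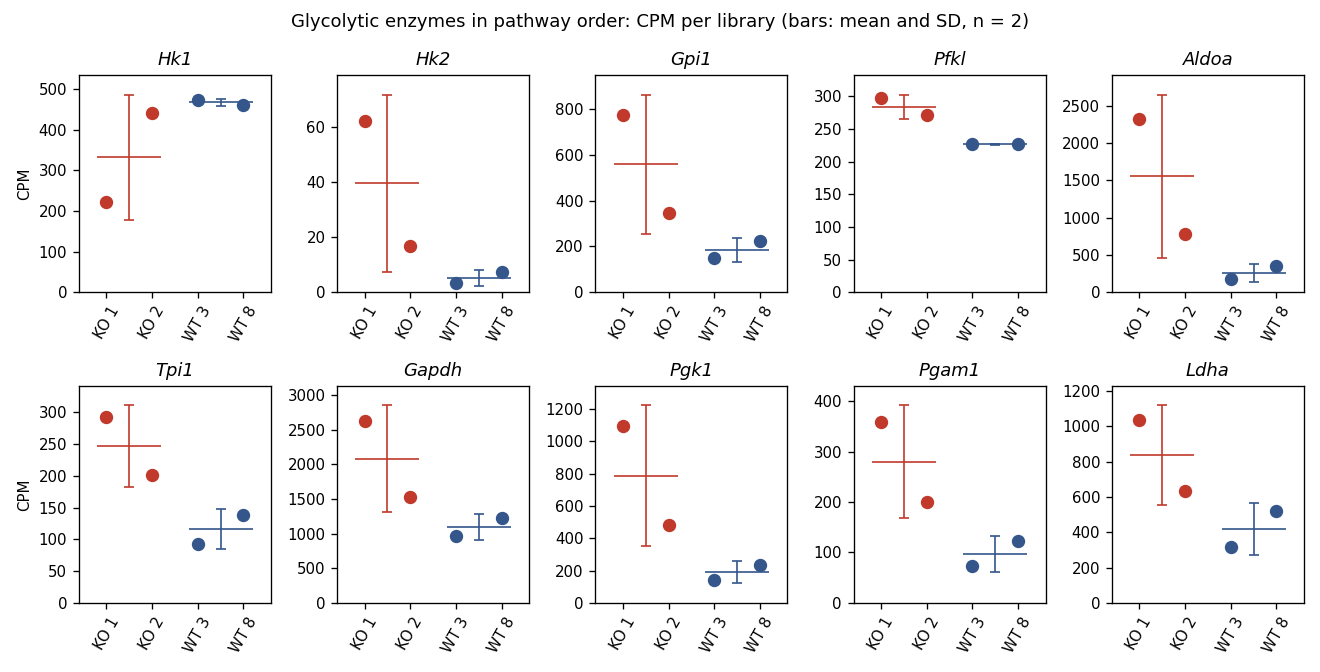
CPM of the scaled library (vertical axes, from 0) of the 10 enzymes in pathway order, with a point per library, KO1 and KO2 in red and WT3 and WT8 in blue, and lines and bars for the group mean and SD (n = 2). In 9 panels both red points lie above both blue points, and in the panel of Hk1 the point of KO1 lies far below the other 3 libraries.

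The promoters are shown because 9 of these genes had the same order of levels over the libraries. Promoter windows were those of RefSeq on GRCm38.p6, from 250 bases before to 50 bases after each annotated transcript start, and 10 of the 10 genes matched, with 14 windows. They were searched on both strands for ACGTG, one of the forms of the HIF core. It was found in at least 1 window of 7 of the 10 genes (Hk1, Hk2, Aldoa, Gapdh, Pgk1, Pgam1 and Ldha) while 21.8% of the 27025 genes of the promoter table hold it in at least 1 window. That set is not limited to the genes of the count table. The enzymes also have more windows a gene (14 for 10) than that set (32851 for 27025), which favours a match. By window it was in 8 of the 14, where 19.6% of all 32851 windows hold it, and 2 of the 8 are overlapping windows of Aldoa that share 1 match. The other form, GCGTG, was in 6 of the 14 windows and in 32.4% of all windows. By gene it was in at least 1 window of 5 of the 10, and of 35.2% of the 27025 genes. The E-box CACGTG, which contains ACGTG, was in 1 of the 14, that of Ldha, and in 7.15% of all windows. AGATAA, a form of the site bound by the erythroid factor GATA1, was in 0 of the 14 and in 11.2% of all windows. Hk1 held ACGTG in the window of 1 of its 2 starts, and Gpi1 and Tpi1 held neither form of the core. These are matches of letters, and no binding was measured. The windows of Hk2 (chr6:82774405-82774704, minus strand), Pgk1 (chrX:106186850-106187149, plus strand) and Ldha (chr7:46845554-46845853, plus strand) are given because they held 2 or more matches and belong to genes that were higher in the KO libraries. The windows of Gpi1 (chr7:34230287-34230586, minus strand), which was higher with no match, and Hk1 (chr10:62340372-62340671, minus strand), which was lower with matches, stand beside them. Each is written 5′ to 3′ on the strand of the gene, and capitals mark ACGTG on either strand.
Hk2: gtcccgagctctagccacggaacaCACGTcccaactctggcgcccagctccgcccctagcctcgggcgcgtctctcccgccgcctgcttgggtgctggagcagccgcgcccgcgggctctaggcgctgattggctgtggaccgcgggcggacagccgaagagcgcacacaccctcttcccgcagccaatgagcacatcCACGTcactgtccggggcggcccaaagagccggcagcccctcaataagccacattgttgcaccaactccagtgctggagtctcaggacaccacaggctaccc
Pgk1: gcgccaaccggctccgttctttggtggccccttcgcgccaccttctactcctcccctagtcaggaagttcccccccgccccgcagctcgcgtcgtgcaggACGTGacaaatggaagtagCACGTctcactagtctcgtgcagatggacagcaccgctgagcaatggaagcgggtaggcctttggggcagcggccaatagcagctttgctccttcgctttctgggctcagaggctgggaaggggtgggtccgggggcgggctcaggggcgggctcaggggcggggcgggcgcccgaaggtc
Ldha: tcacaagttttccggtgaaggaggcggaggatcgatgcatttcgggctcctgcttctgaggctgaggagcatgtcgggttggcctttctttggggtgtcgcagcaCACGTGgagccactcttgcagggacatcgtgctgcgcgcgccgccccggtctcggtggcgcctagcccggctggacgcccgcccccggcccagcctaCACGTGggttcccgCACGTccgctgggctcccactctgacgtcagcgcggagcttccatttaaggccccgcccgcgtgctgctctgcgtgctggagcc
Gpi1: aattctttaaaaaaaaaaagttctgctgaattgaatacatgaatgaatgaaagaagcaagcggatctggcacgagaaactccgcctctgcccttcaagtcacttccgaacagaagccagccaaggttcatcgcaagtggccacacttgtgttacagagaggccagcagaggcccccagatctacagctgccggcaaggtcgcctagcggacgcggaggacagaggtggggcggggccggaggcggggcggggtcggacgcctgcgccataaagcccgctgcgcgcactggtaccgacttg
Hk1: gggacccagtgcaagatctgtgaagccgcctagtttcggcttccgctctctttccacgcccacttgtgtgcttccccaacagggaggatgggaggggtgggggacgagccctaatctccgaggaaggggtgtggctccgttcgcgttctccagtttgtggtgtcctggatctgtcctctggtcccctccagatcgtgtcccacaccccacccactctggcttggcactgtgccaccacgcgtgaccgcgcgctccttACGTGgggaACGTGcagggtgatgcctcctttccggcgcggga
The Ldha window held 3 separate stretches, 2 of them the E-box, and the Pgk1 and Hk2 windows held 2 each. In Hk1 both matches lie after the transcript start.

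At the entry of the pathway the hexokinases differed in direction. Hk1 (ENSMUSG00000037012, chromosome 10 of NCBIM37, 61731603 to 61842656, minus strand), the widespread hexokinase and that of the red cell, had 223 and 441 CPM in KO1 and KO2, against 473 and 461 CPM in WT3 and WT8. KO1 alone was low, and KO2 was 0.945 times the control mean. For Hk1 the fitted log2 fold change was -0.49 (SE 0.35, 95% interval -1.34 to 0.36, edgeR adjusted p = 0.503). Leaving out KO2 gave -1.08 (edgeR adjusted p = 0.0139), and leaving out KO1 gave -0.08 (edgeR adjusted p = 0.975). Hk2 (ENSMUSG00000000628, chromosome 6, 82675019 to 82724448, minus strand), the inducible hexokinase of muscle and growing cells, had 62.4 and 16.8 CPM in KO1 and KO2, against 3.23 and 7.25 CPM in WT3 and WT8. The groups did not overlap, and each group was widely spread, with KO1 at 3.71 times KO2 and WT8 at 2.25 times WT3. The log2 fold change of Hk2 was 2.90 (SE 0.71, 95% interval 1.17 to 4.64, edgeR adjusted p = 0.299).

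Gpi1 (ENSMUSG00000036427, chromosome 7, 34987141 to 35015308, minus strand), glucose phosphate isomerase, had 775 and 345 CPM in KO1 and KO2, against 148 and 222 CPM in WT3 and WT8. The KO mean was 560 ± 305 CPM and the WT mean 185 ± 52.5 CPM (SD, n = 2 each). The log2 fold change of Gpi1 was 1.60 (SE 0.43, edgeR adjusted p = 0.332). Pfkl (ENSMUSG00000020277, chromosome 10, 77449692 to 77472828, minus strand), the liver form of phosphofructokinase, which is also part of the red cell enzyme, had 297 and 271 CPM in KO1 and KO2, against 226 and 227 CPM in WT3 and WT8. Pfkl was nearly level within each group, and the groups did not overlap. Its log2 fold change was 0.33 (SE 0.19, 95% interval -0.14 to 0.79, edgeR adjusted p = 0.459), and it ran from 0.26 to 0.38 over the 13 alternatives, none of which called it.

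Aldoa (ENSMUSG00000030695, chromosome 7, 133938748 to 133944265, minus strand), aldolase A, which cleaves fructose bisphosphate, had 2326 and 776 CPM in KO1 and KO2, against 176 and 345 CPM in WT3 and WT8. KO1 was 8.93 times the control mean and KO2 was 2.98 times. The log2 fold change of Aldoa was 2.57 (SE 0.61, 95% interval 1.08 to 4.07, edgeR adjusted p = 0.292). Tpi1 (ENSMUSG00000023456, chromosome 6, 124760604 to 124764314, minus strand), triosephosphate isomerase, had 292 and 201 CPM in KO1 and KO2, against 93.4 and 138 CPM in WT3 and WT8. For Tpi1 the gap between the controls (0.56 on the log2 scale) was about as large as that between KO2 and WT8 (0.54). The log2 fold change of Tpi1 was 1.09 (SE 0.29, edgeR adjusted p = 0.325).

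Gapdh (ENSMUSG00000057666, chromosome 6, 125111871 to 125116485, minus strand), which oxidises glyceraldehyde phosphate and is widely used to normalise other genes, had 2625 and 1533 CPM in KO1 and KO2, against 964 and 1229 CPM in WT3 and WT8. Its log2 fold change was 0.92 (SE 0.34, 95% interval 0.08 to 1.77, edgeR adjusted p = 0.418). Pgk1 (ENSMUSG00000062070, chromosome X, 103382439 to 103399038, plus strand), phosphoglycerate kinase, which makes the first ATP of the pathway, had 1095 and 481 CPM in KO1 and KO2, against 141 and 238 CPM in WT3 and WT8. Pgk1 gave the lowest p among the 10 enzymes, and its log2 fold change was 2.06 (SE 0.47, 95% interval 0.90 to 3.21, edgeR adjusted p = 0.278). Pgam1 (ENSMUSG00000011752, chromosome 19, 41986361 to 41993154, plus strand), phosphoglycerate mutase, had 359 and 201 CPM in KO1 and KO2, against 72.7 and 123 CPM in WT3 and WT8. The groups stood apart with a log2 fold change of 1.52 (SE 0.38, edgeR adjusted p = 0.301).

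Ldha (ENSMUSG00000063229, chromosome 7, 54096845 to 54110997, plus strand) had 1036 and 636 CPM in KO1 and KO2, against 315 and 521 CPM in WT3 and WT8. KO2 was 1.52 times the control mean but 0.29 above WT8 on the log2 scale, while the controls differed by 0.72. The log2 fold change of Ldha was 0.9997 (SE 0.36, 95% interval 0.11 to 1.89, edgeR adjusted p = 0.413).

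**Figure D2:**
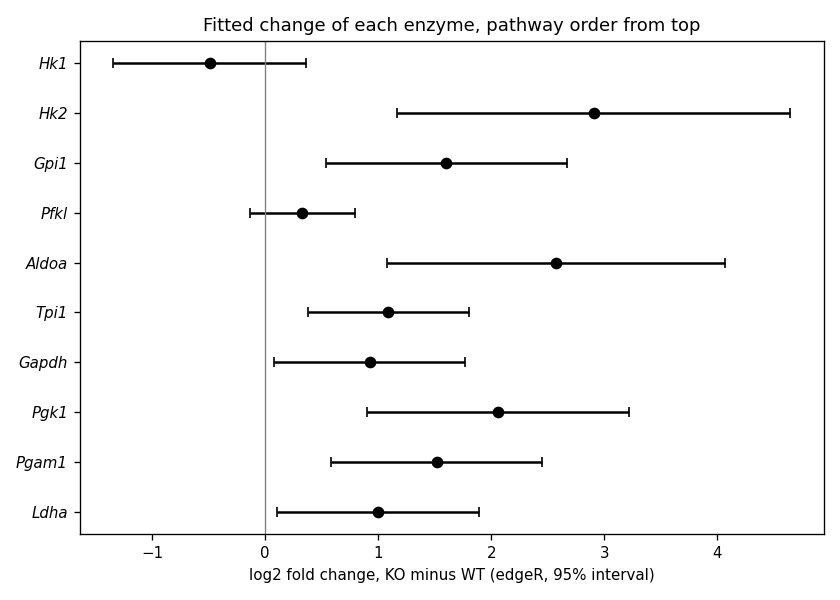
Fitted log2 fold change of each enzyme, KO minus WT (horizontal axis), with its 95% interval from edgeR's quasi-likelihood fit, in pathway order from top to bottom. The intervals of 8 enzymes lie above 0 before adjustment over all genes, and those of Hk1 and Pfkl cross 0.

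The sum over the 10 enzymes was 9091 and 4901 CPM in KO1 and KO2, against 2612 and 3509 CPM in WT3 and WT8. Its mean was 2.29 times that of the controls, or 2.50 times with Gapdh left out. A two-sided exact permutation test of the sum over the 6 arrangements of the libraries gave p = 0.333. That is the smallest value it can give with 2 libraries a group, so it decides nothing and the sum is a description.

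The controls were not alike for these genes. WT8 lay above WT3 for 9 of the 10 enzymes, by a median of 0.66 on the log2 scale, where over all genes WT8 was higher for 53.4% and the median difference was 0.02. Aldoa in WT8 was 1.96 times its level in WT3, Pgk1 and Pgam1 1.69 times and Ldha 1.65 times. Pfkl and Hk1 were nearly level between the controls, at 1.003 and 0.974 times. The KO libraries also differed, with KO1 above KO2 for 9 of the 10 by a median of 0.81 on the log2 scale, where 49.6% of all genes were higher in KO1 and the median was -0.01. In size, the difference between WT8 and WT3 was larger than that between KO2 and WT8 for 4 of the 10, Tpi1, Gapdh, Pgam1 and Ldha. For 9 of the 10 enzymes the libraries stood in the order KO1, KO2, WT8 and WT3 from high to low, an order held by 14.7% of all genes.

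Leaving out single libraries moved the calls. Without KO2 the quasi-likelihood test called 8 of the 10 as higher (edgeR adjusted p from 0.00156 for Gpi1 to 0.0302 for Gapdh) and Hk1 as lower, beside 17.3% of all genes called higher and 15.3% lower. In each of these fits the lone library of a group is assumed to vary as the other group does. Without KO1, 0 of the 10 were called, with a median log2 fold change of 0.85, and 1.33% of all genes were called. Without WT3 or without WT8, again 0 of the 10 were called, and 0.383% and 0.252% of all genes were called in these fits. The direction of each of the 10 enzymes was the same in all 13 alternatives. The groups overlapped for 0 of the 10, so leaving out 1 library could hardly reverse a direction. The other alternatives refitted the same 4 libraries, so the shared direction adds no support.

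**Figure D3:**
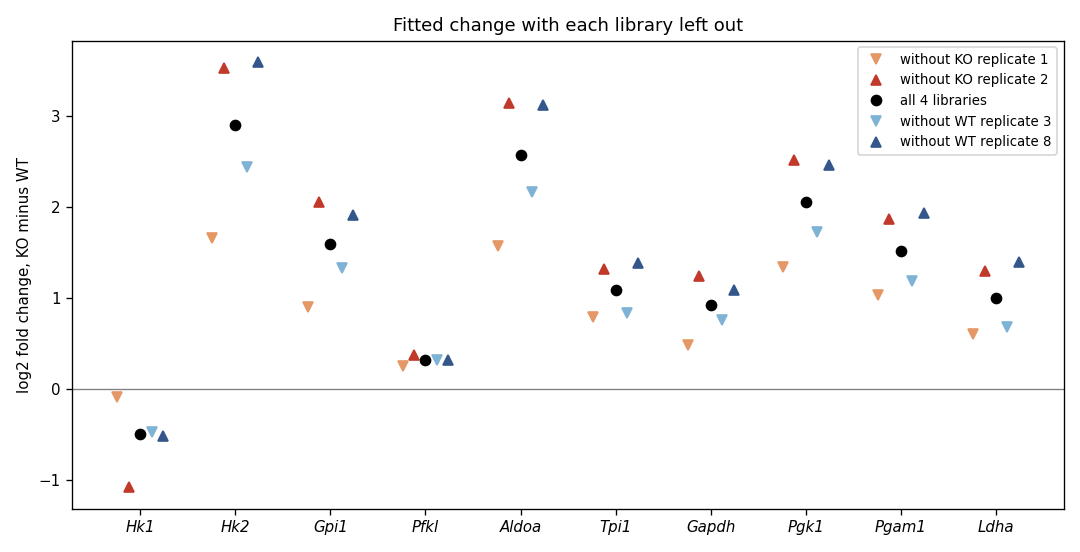
Log2 fold change of each enzyme, KO minus WT (vertical axis), from the fit to all 4 libraries (black) and from fits with 1 library left out (coloured triangles). Leaving out KO1 gave the smallest values for 9 enzymes, and Hk1 stayed below 0 in each fit.

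Levels between the enzymes were compared as CPM per kilobase of the longest annotated transcript. Gapdh had the most transcript in every library, at 1849 and 1079 CPM per kilobase in KO1 and KO2, against 679 and 866 in WT3 and WT8. Hk2 had the least, at 11.3 and 3.05 CPM per kilobase in KO1 and KO2, against 0.585 and 1.31 in WT3 and WT8. The next place differed between groups, with Aldoa next in both KO libraries and Ldha next in both controls. Aldoa was at 1502 and 501 CPM per kilobase in KO1 and KO2, against 114 and 223 in WT3 and WT8, and Ldha was at 586 and 360 in KO1 and KO2, against 179 and 295 in WT3 and WT8. Hk1, at 52.1 and 103 CPM per kilobase in KO1 and KO2, against 111 and 108 in WT3 and WT8, stood above Pgk1 in WT3 and below every other enzyme but Hk2 in KO1.

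Several steps have more than 1 enzyme gene, and the make-up of the 3 irreversible steps differed between libraries (CPM per kilobase, as shares of the step). Hk2 made up 17.7% and 2.87% of hexokinase transcript in KO1 and KO2, against 0.525% and 1.203% in WT3 and WT8. Hk1 made up most of the rest in every library, with 81.5% and 97.0% in KO1 and KO2, against 99.1% and 98.6% in WT3 and WT8. Pfkp, the platelet form of phosphofructokinase, made up 19.04% and 7.88% of that step in KO1 and KO2, against 0.997% and 3.03% in WT3 and WT8. Pfkl held 58.9% and 62.1% in KO1 and KO2, against 62.7% and 59.97% in WT3 and WT8, and Pfkm, the muscle form, 22.1% and 30.1% in KO1 and KO2, against 36.3% and 37.0% in WT3 and WT8. The shares of Pfkl overlapped between the groups, and those of Pfkp and Pfkm did not. A share can fall merely because another rises, and it can also fall with the gene's own level. The levels of Hk1 and Pklr were themselves lower in both KO libraries than in either control, that of Hk1 mainly in KO1. The level of Pfkm itself overlapped, at 86.1 and 101.4 CPM in KO1 and KO2, against 101.0 and 108.1 CPM in WT3 and WT8 (log2 fold change -0.16, edgeR adjusted p = 0.670). For pyruvate kinase, Pkm2 (the table's entry for the gene Pkm, the form of most growing cells) made up 51.2% and 24.7% in KO1 and KO2, against 6.28% and 11.5% in WT3 and WT8. Pklr, the liver and red cell form, made up the remainder, 48.8% and 75.3% in KO1 and KO2, against 93.7% and 88.5% in WT3 and WT8. For Hk2, Pfkp and Pkm2 the share in KO1 lay farther from the controls than that in KO2. These shares are a description and were not tested.

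**Figure D4:**
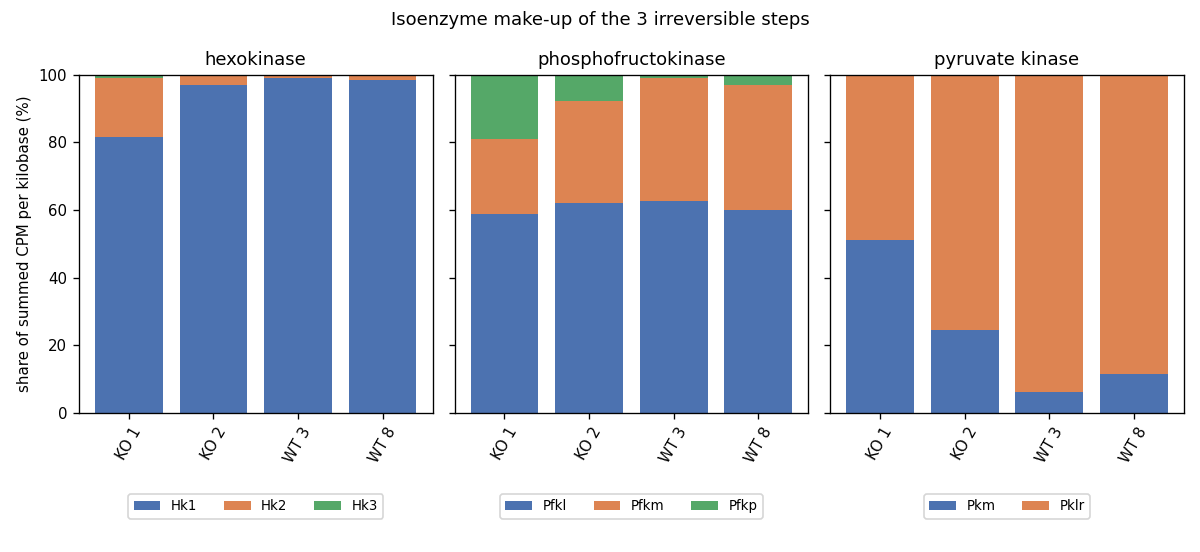
Share of each isoenzyme gene in the summed CPM per kilobase of its step (vertical axes, percent) in KO1, KO2, WT3 and WT8, for hexokinase, phosphofructokinase and pyruvate kinase. Hk2, Pfkp and Pkm take larger shares in KO1 and KO2 than in either control, most in KO1.

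The remaining glycolytic genes were read from the same fit. Of 18 listed isoenzymes and remaining steps 11 were measured, and 0 passed the adjusted threshold. At an unadjusted p below 0.05, 5 were higher and 0 lower, beside 9.82% higher and 2.08% lower over all genes. Their median log2 fold change was 0.20. Pfkp had 120 and 43.0 CPM in KO1 and KO2, against 4.50 and 14.3 CPM in WT3 and WT8 (log2 fold change 3.10, SE 0.71, edgeR adjusted p = 0.278). Eno1, enolase 1, which acts between Pgam1 and pyruvate kinase, had 1208 and 770 CPM in KO1 and KO2, against 306 and 463 CPM in WT3 and WT8 (1.36, SE 0.34, edgeR adjusted p = 0.301). Both followed the library order of the enzymes above. Pkm2 had 617 and 211 CPM in KO1 and KO2, against 48.8 and 121 CPM in WT3 and WT8, with a log2 fold change of 2.28 (SE 0.64, edgeR adjusted p = 0.347). Pklr ran the other way, with 767 and 842 CPM in KO1 and KO2, against 951 and 1217 CPM in WT3 and WT8, and a log2 fold change of -0.43 (SE 0.25, edgeR adjusted p = 0.458). Of the 11, Pkm2, Pfkp and Eno1 were called higher by DESeq2 and by the likelihood ratio test. These tests called 3.29% and 3.09% of all genes higher. In the lists described below, DESeq2 also called Slc16a3, Pfkfb3, Pck2 and Egln3 higher, and the likelihood ratio test Pck2 and Egln3.

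In the lists around the pathway, 0 of the 48 other measured genes passed the adjusted threshold, and at an unadjusted p below 0.05 there were 9 higher and 0 lower. Over all genes 9.82% were higher and 2.08% lower at that level, so higher genes outnumbered lower ones outside these lists too. Whether the lists hold a larger share of higher genes than all genes was not tested. The same shares stand beside each count per list below, and in lists this short a count of 1 or 2 cannot be told from them. Of 8 measured transporters 3 were higher at that level, and their median log2 fold change was 0.44. Slc2a9, a urate and hexose transporter, had 3.36 and 2.80 CPM in KO1 and KO2, against 1.09 and 1.29 CPM in WT3 and WT8 (log2 fold change 1.36, SE 0.36, edgeR adjusted p = 0.325). Slc16a3, the monocarboxylate carrier that exports lactate, had 238 and 192 CPM in KO1 and KO2, against 54.7 and 122 CPM in WT3 and WT8 (1.28, SE 0.39, edgeR adjusted p = 0.363). The glucose transporter gene Slc2a1, chosen after its values were seen, had 1571 and 1584 CPM in KO1 and KO2, against 1453 and 1017 CPM in WT3 and WT8 (0.35, SE 0.28, edgeR adjusted p = 0.534).

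The 6 measured regulators of flux had a median log2 fold change of -0.11, with 1 higher at an unadjusted p below 0.05. It was Pfkfb3, whose product makes an activator of phosphofructokinase. Pfkfb3 had 21.5 and 2.77 CPM in KO1 and KO2, against 1.196 and 2.26 CPM in WT3 and WT8 (log2 fold change 2.79, SE 0.95, edgeR adjusted p = 0.393). Of the 4 libraries only KO1 was high. Bpgm, the bisphosphoglycerate mutase that tunes oxygen release in red cells, was chosen after its values were seen and overlapped between groups, at 530 and 767 CPM in KO1 and KO2, against 802 and 611 CPM in WT3 and WT8. Pfkfb4 had the next smallest p of that list (log2 fold change -0.45, SE 0.35, edgeR adjusted p = 0.526). At pyruvate entry, 12 genes were measured, with a median log2 fold change of 0.12 and 2 higher at an unadjusted p below 0.05. The kinase genes Pdk1 and Pdk2, which restrain pyruvate dehydrogenase, had the smallest p. Pdk1 had 207 and 163 CPM in KO1 and KO2, against 116 and 122 CPM in WT3 and WT8 (0.64, SE 0.20, edgeR adjusted p = 0.383). Pdk2 had 28.2 and 24.6 CPM in KO1 and KO2, against 17.0 and 16.6 CPM in WT3 and WT8 (0.65, SE 0.21, edgeR adjusted p = 0.385).

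The pentose phosphate branch had 8 measured genes, with 0 at an unadjusted p below 0.05 and a median log2 fold change of 0.18. Rpe (0.57, SE 0.31) and Pgls (0.39, SE 0.23) had the smallest p, with edgeR adjusted p values of 0.447 and 0.457. Of the gluconeogenesis list 3 of 7 were measured, with a median of 0.38 and 1 higher at an unadjusted p below 0.05. Pck2, the mitochondrial phosphoenolpyruvate carboxykinase, which is also a known target of ATF4, had 272 and 209 CPM in KO1 and KO2, against 95.9 and 107 CPM in WT3 and WT8 (log2 fold change 1.24, SE 0.22, edgeR adjusted p = 0.169). As given above, Pck2 was called higher by DESeq2 and by the likelihood ratio test, which called 3.29% and 3.09% of all genes higher. G6pc3 had a log2 fold change of 0.38 (SE 0.28, edgeR adjusted p = 0.517).

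The 11 measured regulators of transcription had a median log2 fold change of 0.28, with 2 higher at an unadjusted p below 0.05. Egln1 and Egln3, prolyl hydroxylases that mark HIF for destruction and are themselves HIF targets, had the smallest p. Egln1 had 45.7 and 38.6 CPM in KO1 and KO2, against 24.7 and 22.7 CPM in WT3 and WT8 (log2 fold change 0.83, SE 0.21, edgeR adjusted p = 0.301). Egln3 had 14.7 and 1.89 CPM in KO1 and KO2, against 0.218 and 0.634 CPM in WT3 and WT8 (4.20, SE 1.09, edgeR adjusted p = 0.314). Of the 10716 genes, 10691 exceeded 1 CPM in at least 2 libraries, and Egln3 did so in KO1 and KO2 and in neither control, so a gene of this kind had to differ to be listed. Hif1a, chosen after its values were seen, had 30.5 and 29.8 CPM in KO1 and KO2, against 34.4 and 29.9 CPM in WT3 and WT8, and overlapped between groups. Klf1, a master regulator of erythroid genes, had 204 and 520 CPM in KO1 and KO2, against 689 and 533 CPM in WT3 and WT8 (-0.75, SE 0.45, edgeR adjusted p = 0.464), and was also chosen after its values were seen. KO1 was the low library, as for Hk1.

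Markers of other cell types were read from the same libraries. Neutrophil markers, 5 of 6 measured, summed to 282 and 34.8 CPM in KO1 and KO2, against 37.7 and 42.1 CPM in WT3 and WT8. Megakaryocyte markers, 5 of 5 measured, summed to 127 and 78.7 CPM in KO1 and KO2, against 41.1 and 66.5 CPM in WT3 and WT8. Most of that sum was Itga2b, with 103 and 59.3 CPM in KO1 and KO2, against 19.8 and 51.0 CPM in WT3 and WT8. Of the 5, Pf4, Itga2b and Gp1ba, 3 in all, had the library order of the glycolytic enzymes, while Gp9 and Ppbp overlapped between groups, Gp9 with a log2 fold change of -0.41. Over all genes 14.7% held that order and 46.0% overlapped. Stem and progenitor markers, 2 of 4 measured, summed to 77.4 and 39.1 CPM in KO1 and KO2, against 37.7 and 34.1 CPM in WT3 and WT8. Endothelial markers, 3 of 3 measured, summed to 20.8 and 17.5 CPM in KO1 and KO2, against 8.05 and 6.72 CPM in WT3 and WT8. Of these, Pecam1 had the library order of the glycolytic enzymes. Kdr was higher in both KO libraries in another order, and Cdh5 overlapped between groups. Macrophage markers, 7 of 7 measured, summed to 7.83 and 16.7 CPM in KO1 and KO2, against 38.7 and 18.5 CPM in WT3 and WT8. Hepatoblast markers, 6 of 7 measured, summed to 57.5 and 67.3 CPM in KO1 and KO2, against 122 and 48.3 CPM in WT3 and WT8. Serpina1a, Elane, Cd34 and Spi1 are the markers of these lists without a row in the table. No marker gene passed the adjusted threshold in edgeR's quasi-likelihood test. The part of these cells in the glycolytic values was not tested.

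The genes outside the lists with the library pattern closest to the mean of the 10 enzymes were Slc7a7, Bambi, Ccdc112, Gp5 and Xlr4b. The measure was the Euclidean distance of centred log2 CPM over the 4 libraries, from 0.0574 for Slc7a7 to 0.124 for Xlr4b. All 5 were of low level, and Slc7a7, an amino acid transporter, was the highest with 9.10 and 5.18 CPM in KO1 and KO2, against 2.28 and 3.27 CPM in WT3 and WT8. Ccdc112 (0.580 and 0.866 CPM in WT3 and WT8) and Xlr4b (0.471 and 0.718) were below 1 CPM in both controls. As with Egln3, genes of this kind had to differ to be listed. Gp5 encodes a platelet glycoprotein and had 6.00 and 3.40 CPM in KO1 and KO2, against 1.41 and 2.03 CPM in WT3 and WT8.

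Processed copies of these genes limit some of the counts. In the NCBIM37 annotation, 45 pseudogenes matched the Gapdh transcript at 90% identity or more over at least 300 bases, 1 of which has its own row in the count table. Ldha had 9 such pseudogenes, Pgam1 3, Pgk1 2 and Aldoa 1, and none of these is in the table. Hk1, Hk2, Gpi1, Pfkl and Tpi1 had 0. How reads shared between a gene and its copies were counted is not stated, so the values of Gapdh, Ldha, Pgam1, Pgk1 and Aldoa are uncertain to that extent.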

How the data were processed

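Erythroid cells of 2 knockout-labelled and 2 control libraries were compared, grouped by title. The authors deposited raw counts per gene, whole numbers per the file headers and values, with their own p-value and adjusted p-value per gene. Tools in the submitters' processing notes, given without roles, include HTSeq, edgeR, limma, Trimmomatic 0.30 and TopHat2 2.0.8, with the builds mm9 and NCBIM37. Strand is not given in the sources used here. The count table was fitted whole in edgeR 4.0.16 (R 4.3.3): filterByExpr (0 genes removed), TMM, estimateDisp, glmQLFit with robust=TRUE and the default legacy option, then its quasi-likelihood F test (two-sided), with 2 residual degrees of freedom and Benjamini-Hochberg adjustment over 10716 genes. The SE of a log2 fold change was its size over the root of F. The code was tested on simulated data. Positions and transcript lengths came from GENCODE M1 on NCBIM37, for Pkm2 by name. Pseudogenes were sought with BLAST 2.17.0. The alternatives were DESeq2 1.42.0, limma-voom (limma 3.58.1), the likelihood ratio test, other scalings, filters and options, and leaving out each library. Members and lists were chosen with earlier results of these data known. The rule for named genes took all 10 enzymes, and from each list the genes past the threshold or otherwise the 2 with the smallest p, isoenzymes of shared steps, and the 5 nearest patterns. Precision is limited by the 2 libraries a group. The result of 1 marker list is not reported here.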

Additional observations from a re-analysis of the deposited data

How the results depend on the processing

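Of the 10 enzymes, 0 passed with all 4 libraries in edgeR's quasi-likelihood test, against 6 with DESeq2, 6 with the likelihood ratio test and 0 to 9 with 1 library left out, the 9 without KO2. The cause was not tested. Over all genes the 11 calls became 87 without library scaling, 374 with DESeq2, 349 with the likelihood ratio test and 27 (without WT8) to 3492 (without KO2) with 1 library left out, with 143 without KO1 and 41 without WT3. Of the 59 other listed genes 0 passed, against 7 with DESeq2, 5 with the likelihood ratio test and 0 to 18 with 1 library left out. The median log2 fold change of the enzymes (1.30) ran from 0.85 (without KO1) to 1.65 (without WT8), and the log2 ratio of their summed level (1.19) from 0.68 (without KO1) to 1.57 (without KO2). Without division by length the difference in share (KO minus WT) was -4.44 in place of -0.88 percentage points for Pfkl, 1.05 in place of 2.24 for Pgam1 and -1.05 in place of -2.24 for Pgam2. RLE scaling, the filters, limma-voom, robust=FALSE and the other legacy value kept these counts within 1.5 times. No enzyme changed direction in any of the 13 alternatives, which was largely fixed in advance because the groups did not overlap. No paired analysis was possible because the groups share no replicate number.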
